A study of Malus domestica with 9 samples.

Results

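A set of 145 genes of the apple fruit peel (Malus domestica) were strongly raised at 6 h of light over their level at 0 h. By the limits given below, they were back near their starting level at 24 h. They were found among the 46558 genes of the deposited table, of which 25362 averaged at least 1 FPKM over the 9 libraries, a unit that scales fragments to transcript length and to library size. Members were chosen on log2(mean FPKM + 1) at each time. The 6 h value had to exceed both the 0 h and the 24 h value by at least 2.5, and the 24 h value had to lie within 1 of the 0 h value. The measured values themselves therefore chose the set, and the rise, the fall and the return are given as a description of it. Since 1 is added to each mean, low levels that differ by a large ratio between 0 h and 24 h still count as a return.

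The fruit had been bagged and was sampled after 0 h, 6 h and 24 h of light following bag removal, with 3 libraries per time that the submitters call biological replicates. All groups share the species, the tissue and the bagging, and the sources used here give neither a cultivar nor the age of the fruit. No still-bagged fruit at 6 h or 24 h is among the libraries analysed here, so the effects of light, of bag removal and of the time of day cannot be told apart. In bulk peel, fewer cells of a type and less RNA per cell cannot be told apart either. The labels do not say whether replicates were separate fruit or trees, so p-values reflect how far these libraries spread.

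Bagging shields the growing fruit from light, and the peel stays pale or green until the bag is removed. Plant tissue senses light through phytochromes, cryptochromes, phototropins and the UV-B receptor, and these set off a change in transcription that in apple peel leads to anthocyanin, the red pigment. In many plant responses to a new stimulus, some transcripts rise and decline again within hours while others stay raised, and the circadian clock gives further transcripts a daily peak. No function can be given for single genes here. The files identify genes by apple locus identifiers alone, and a RefSeq table of 51804 apple genes held 0 of these identifiers. The labelled tissue could not be checked against marker genes for the same reason, and no sequences are shown.

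The rise was large against the level that preceded it. Over the 145 members the median level was 0.804 FPKM at 0 h, 24.8 FPKM at 6 h and 0.783 FPKM at 24 h. Levels at 6 h ran from 5.17 to 686 FPKM, so the members spanned more than 100-fold among themselves. At 6 h, 28 members were under 10 FPKM, 98 lay between 10 and 100 FPKM, and 19 were above. The log2 difference between 6 h and 0 h had a median of 3.36 and reached 6.48, and that between 6 h and 24 h had a median of 3.27 and reached 6.03. In plain FPKM the 6 h level was 6.14 to 426 times the 24 h level, with a median ratio of 24.97, in the 135 members with more than 3 reads over the 24 h libraries. The other 10 had 1 to 3 reads there, too few for a ratio.

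**Figure D1:**
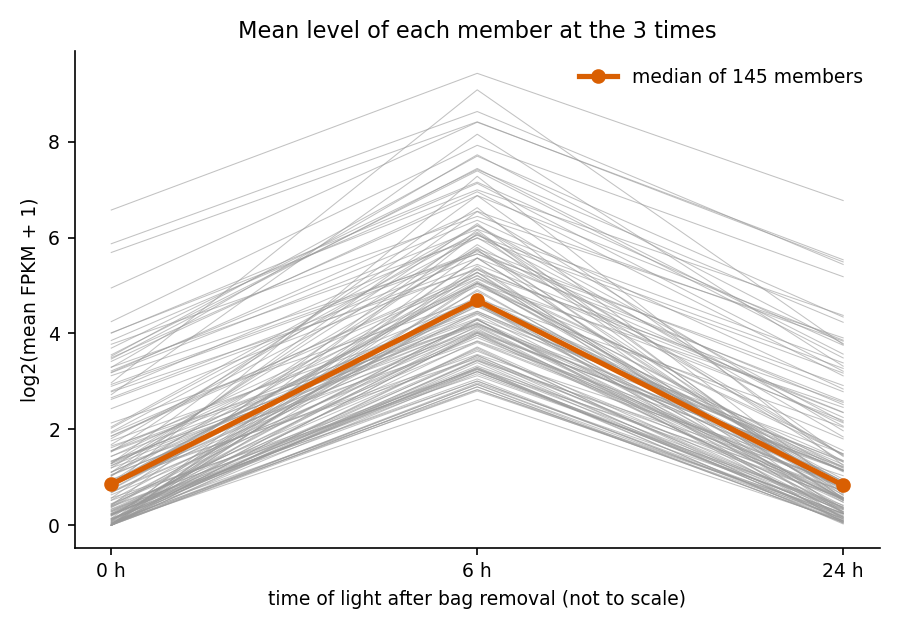
Mean level of each of the 145 members at 0 h, 6 h and 24 h (log2(mean FPKM + 1), 3 libraries per time); each grey line is a gene and the orange line joins the medians. Every line peaks at 6 h, as the choice of members requires, and the members differ widely in the level from which they started.

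Together the members made up a small share of expression that grew at 6 h. Their FPKM summed to 0.0816%, 0.0837% and 0.0869% of all FPKM in the 0 h libraries. In the 6 h libraries the share was 1.43%, 1.09% and 1.18%, and in the 24 h libraries it was 0.0842%, 0.0878% and 0.0755%. The 6 h libraries lay far above all others, and the ranges of this share at 0 h and 24 h overlapped. The summed level was 558 ± 35.9 FPKM at 0 h, 8270 ± 1048 FPKM at 6 h and 623 ± 32.1 FPKM at 24 h (SD, n = 3 each). By this level the 24 h libraries, at 593, 618 and 657 FPKM, all lay above the 0 h libraries, at 519, 566 and 589 FPKM. By share the order of the means was the reverse, at 0.0841% at 0 h and 0.0825% at 24 h. Among these libraries the third 24 h library had the highest sum but the lowest share. The order of 24 h and 0 h thus differs between the scales, and nothing is read from it. The highest member held 8.29% of the summed 6 h level and the 10 highest held 41.3%.

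MD04G1069200 had the highest level of the set at 6 h. It stood at 88.5, 100.2 and 94.1 FPKM in the 0 h libraries, at 661, 679 and 718 FPKM in the 6 h libraries and at 101.5, 102.8 and 120.5 FPKM in the 24 h libraries. It was well expressed throughout, and its 6 h libraries stood apart from the other 6, which lay close together. Its log2 difference was 2.85 between 6 h and 0 h (SE 0.102, limma adjusted p = 1.79e-08) and -2.66 between 24 h and 6 h (SE 0.102, limma adjusted p = 1.85e-08). MD07G1064100 and MD10G1340100 were of the same kind, with a high level before light. MD07G1064100 averaged 57.5 ± 2.44 FPKM at 0 h, 395 ± 10.5 FPKM at 6 h and 42.4 ± 1.75 FPKM at 24 h (SD, n = 3 each). Its 24 h libraries, at 40.8, 44.3 and 42.1 FPKM, all lay below its 0 h libraries, at 54.7, 58.7 and 59.1 FPKM (log2 difference -0.43, limma adjusted p = 0.000853). MD10G1340100 averaged 50.6 ± 2.16 FPKM at 0 h, 340 ± 41.5 FPKM at 6 h and 44.0 ± 4.26 FPKM at 24 h (SD, n = 3 each). The choice of members used the contrasts of 6 h with 0 h and of 24 h with 6 h. The p-values of these contrasts, here and for the genes below, are therefore a description and no support.

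The largest differences between 6 h and 0 h on the log2(mean FPKM + 1) scale belonged to MD13G1160900 and MD13G1161100, whose identifiers are 2 places apart in the table. MD13G1160900 had 0.919, 0.657 and 0.636 FPKM at 0 h, 187, 156 and 120 FPKM at 6 h, and 0.370, 1.30 and 2.45 FPKM at 24 h. It was near the detection limit at both ends, with 19 reads summed over the 0 h libraries, 3957 over the 6 h libraries and 33 over the 24 h libraries. Its log2 difference was 6.46 between 6 h and 0 h (SE 0.287, limma adjusted p = 6.89e-08). MD13G1161100 had 5.86, 4.60 and 10.0 FPKM at 0 h, 703, 449 and 469 FPKM at 6 h, and 7.76, 17.1 and 13.2 FPKM at 24 h. It was second in the set by its 6 h level, and its first 6 h library was well above the other two. Its log2 difference was 6.14 between 6 h and 0 h and -5.34 between 24 h and 6 h (SE 0.305 for both, limma adjusted p = 1.45e-07 and 2.78e-07). Between 24 h and 0 h the log2 difference was 0.80 (limma adjusted p = 0.0442), and the libraries of these times overlapped.

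**Figure D2:**
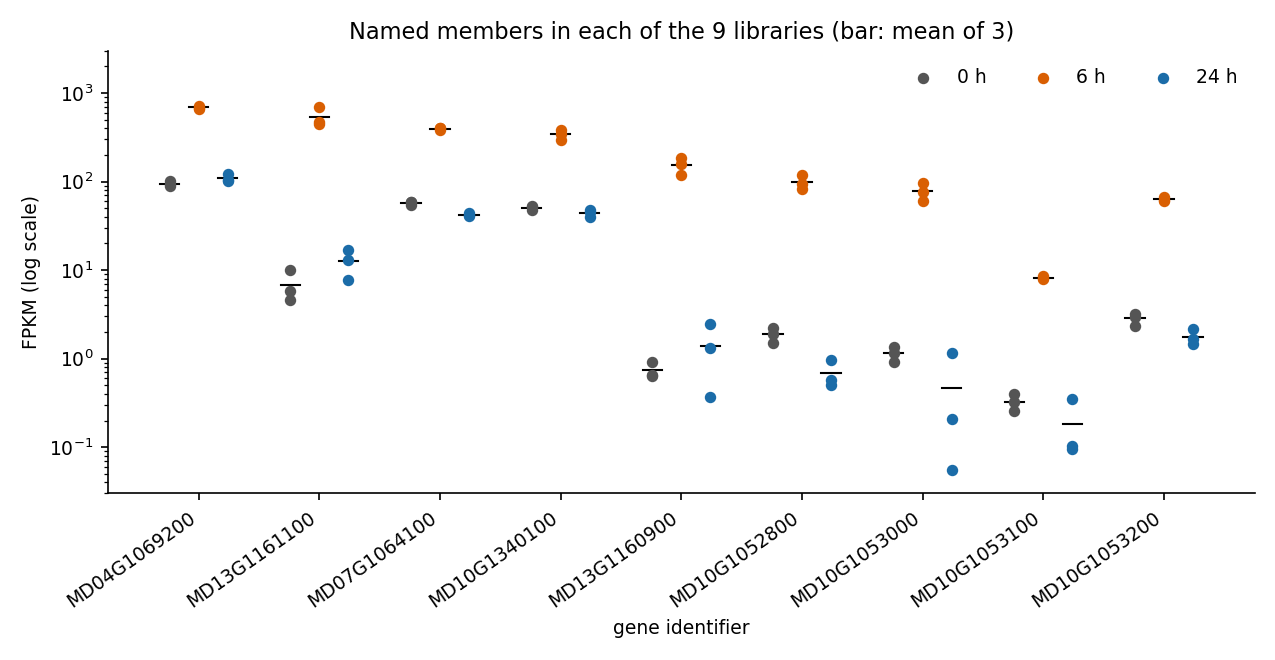
FPKM on a log axis of 9 members in each of the 9 libraries, with 0 h, 6 h and 24 h from left to right for each gene; points are libraries and bars are means of 3. MD04G1069200 peaks at 686 FPKM and MD10G1053100 at 8.22 FPKM, and in each of the 9 genes all 6 h points lie above all others.

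The members can be read by where they started. At 0 h, 80 of them had a mean under 1 FPKM, and these reached a median of 14.3 FPKM at 6 h, with 154 FPKM as the highest. Another 51 started between 1 and 10 FPKM and reached a median of 40.0 FPKM. The remaining 14 started above 10 FPKM and reached a median of 171 FPKM, from 85.9 to 686 FPKM. With the pseudocount of 1, the rule asks a higher 6 h level of a gene that is already expressed, so this order is partly fixed by the choice.

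Some members were essentially silent before light. Over the 0 h libraries 28 members had at most 3 reads in all, and 15 of these had none. At 6 h these 15 genes had a median level of 15.0 FPKM and lay between 6.09 and 52.6 FPKM. Set against 3 reads over the 0 h libraries, the upper limit that a count of 0 allows, their levels were at least 46.9-fold to at least 1213-fold higher at 6 h than at 0 h. MD02G1095700, named after its values were seen, gave the highest of these bounds, with 0 reads at 0 h, 3635 at 6 h and 63 at 24 h. None of the members was without reads at 24 h, against 15 at 0 h. Reads in genes summed to 54.8 M at 24 h and 49.7 M at 0 h, and the FPKM denominators to 50.6 M at 24 h and 53.5 M at 0 h, and the part of depth in this difference was not tested. Among all tested genes, 5 had no reads at 24 h and 52 had none at 0 h. These floors cover counting error only.

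All 145 members were called higher at 6 h than at 0 h by limma (adjusted p under 0.05 and a log2 difference of at least 1), against 9.36% of all tested genes. All were also called lower at 24 h than at 6 h, against 7.79% of tested genes. The choice of members used these contrasts, so nothing is read from the counts. The highest adjusted p among members was 0.00184 for the rise and 0.00111 for the fall (limma). In all 145 members the 3 libraries at 6 h lay above the 6 libraries at 0 h and 24 h, which held for 16.4% of tested genes. The wider pattern of a call up at 6 h, a call down after it and no call between 24 h and 0 h held in 918 genes (3.62% of those tested), and every member was among them.

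The return to the starting level was close but not exact. The 24 h mean was above the 0 h mean in 89 members and below it in 56, and the median log2 difference between 24 h and 0 h was 0.11. A shift this small is of the size that the scaling of libraries makes. Over all tested genes, summed reads as the denominator moved the median of this difference by -0.19, and quantile normalization by -0.09. The part of scaling in the direction of the members was not tested. In 43 members the 24 h libraries all lay above the 0 h libraries, against 34.0% of tested genes, and in 16 they all lay below, against 30.2% of tested genes. The rule limits this difference, so nothing is read from these counts. By limma none of the members was called between 24 h and 0 h with the size limit, against 19.8% of tested genes, as the rule nearly fixes. At an unadjusted p under 0.05 there were 48, against 63.5% of tested genes, and at an adjusted p under 0.05 alone 44 members differed, 29 upward and 15 downward, against 59.0% of tested genes. The 0 depended on the scale for low genes: limma called 37 members with a pseudocount of 0.1, against 25.5% of tested genes, and limma-voom on the recovered reads called 29, against 26.1%. Left-out libraries also moved it, to 6 without the first 24 h library, 4 without the third 0 h library, and 2 without the first or second 0 h library or the second 24 h library, with 19.4% to 21.2% of tested genes called in these fits.

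The same measures were also taken in libraries that the choice had not used. Genes were chosen with the same rule from the libraries of 2 replicate numbers and measured in the libraries of the third. With number 1 held out, 137 genes were chosen, and their median log2 difference between 6 h and 0 h was 3.55 in the held-out libraries, against 3.29 in those used to choose. With number 2 held out, 151 genes had a held-out median of 3.17, against 3.45 where they were chosen, and with number 3 held out, 156 genes had 3.31, against 3.38. The median over all tested genes was 0.01 to 0.02 in the same single libraries. The held-out rise was at least 2.5 in 126 of 137, 127 of 151 and 134 of 156 genes, which 1.81% to 2.16% of tested genes reached. The held-out medians between 24 h and 6 h were -3.47, -3.08 and -3.24. The limits on rise, fall and return were met again in the held-out libraries by 117, 104 and 104 genes. The share of all tested genes that met them together there was not computed, so nothing is read from these counts. Of the chosen genes 127, 137 and 137 were members. The rule was set with earlier results of these data known, so the held-out libraries were not independent of it.

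A held-out rise under 1 occurred for 1 gene in the 3 rounds. It was MD05G1021100, not a member, with 1.72, 6.46 and 22.6 FPKM in the 6 h libraries. Its first 6 h library was close to its 0 h libraries, at 1.71, 1.20 and 1.09 FPKM, and its mean rested on the third.

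**Figure D3:**
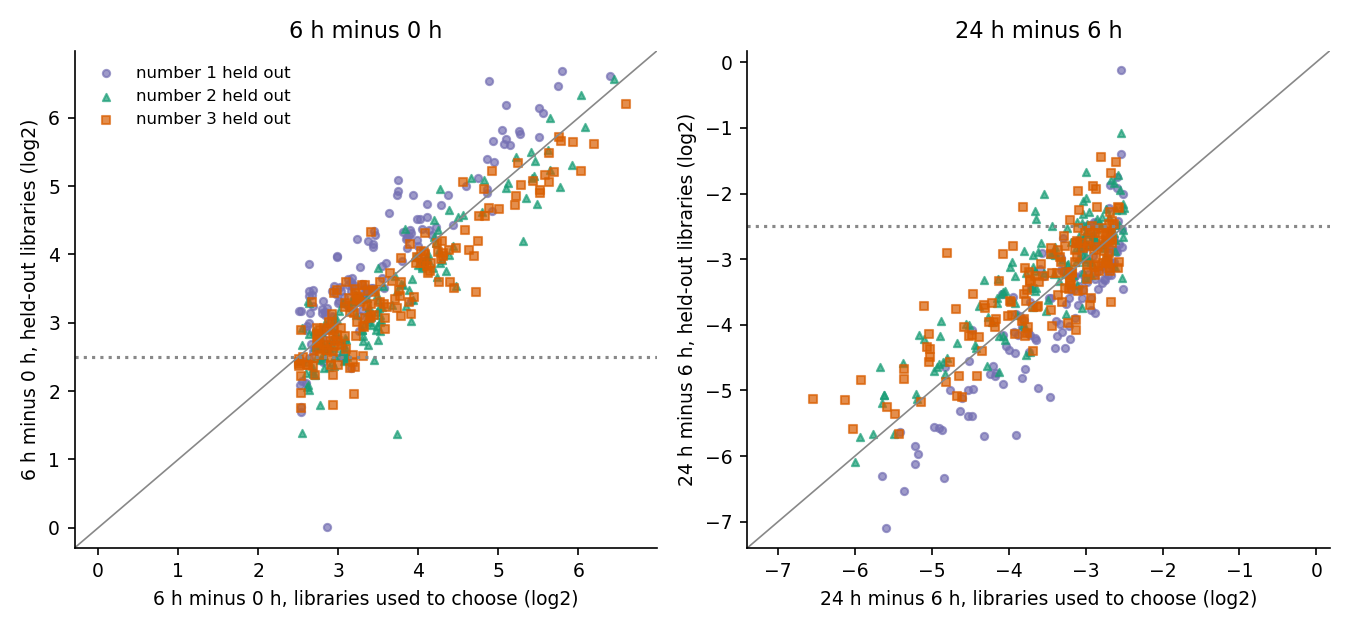
Log2 difference of FPKM + 1 in the libraries used to choose genes (x axis) and in the held-out libraries (y axis), for 6 h minus 0 h on the left and 24 h minus 6 h on the right; each point is a gene, the diagonal marks equal values and the dotted line the limit of 2.5. With number 1 held out the median rise was larger in the held-out libraries, at 3.55 against 3.29, and with number 2 held out it was smaller, at 3.17 against 3.45.

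The 6 h libraries did not carry the members equally. The first 6 h library held the highest of the 3 values in 112 of the 145 members (77.2%), against 36.5% of all tested genes. The second was highest in 11 members and the third in 22. Relative to the mean of the other 2 libraries, the first stood 0.30 higher in the median member on the log2(FPKM + 1) scale, with a middle range of 0.11 to 0.52, while over all tested genes it stood 0.01 higher. The first 6 h library had 16840739 reads in genes, against 17245505 in the second and 18179325 in the third. The part of depth in this order was not tested.

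Genes raised by at least 2.5 at both 6 h and 24 h had another order of libraries. Among these 129 genes, the first 6 h library was highest in 42 (32.6%). Its median there was 0.06 below the other libraries of its time. Among the 320 non-members that met the limit on the rise at 6 h, it was highest in 157 (49.1%). It was highest in 34 of the 44 non-members that met both limits of 2.5 but stayed at least 1 above their start. At 24 h the third 24 h library was highest in 93 of those 129 genes (72.1%), but in 55 of the 145 members (37.9%), against 46.2% of all tested genes. These are counts over genes of the same libraries, and no test over samples can be made of 3 libraries. Among members the excess of the first 6 h library was 0.38 in those under 1 FPKM at 0 h, 0.27 in those between 1 and 10 FPKM and 0.06 in those above 10 FPKM.

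**Figure D4:**
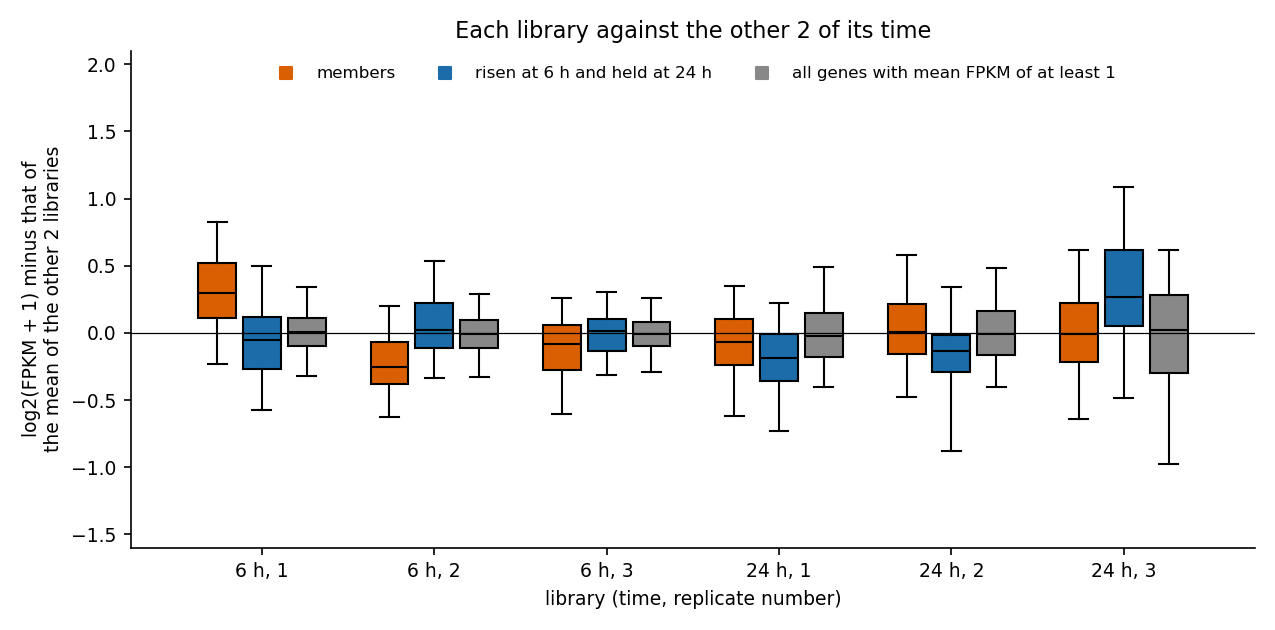
For each 6 h and 24 h library, its log2(FPKM + 1) minus that of the mean of the other 2 libraries of its time; boxes show the middle range with the median, and whiskers the 5th to 95th percentile, for members (orange), 129 genes raised at both times (blue) and all tested genes (grey). The members have a median of 0.30 in the first 6 h library, and the genes that stayed raised have a median of 0.26 in the third 24 h library.

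Without the first 6 h library the rule gave 135 genes, of which 132 were members, and all 145 members were still called in both contrasts by limma. The spread between 6 h libraries was larger in members than elsewhere, with a median coefficient of variation of 17.5%, against 7.74% in tested genes of at least 1 FPKM at 6 h. For the genes raised at both times it was 10.4%. The larger spread of members was not particular to 6 h. In genes of at least 1 FPKM at 0 h it was 18.7% in 65 members, against 8.62% in tested genes. At 24 h, in genes of at least 1 FPKM there, it was 22.8% in 64 members against 15.3%. In the non-members that met the limit on the rise it was 13.6% at 0 h, 11.2% at 6 h and 16.9% at 24 h. The part of expression level in these spreads was not tested. The widest spread at 6 h was in MD17G1020300, singled out for it, with 305, 50.3 and 68.9 FPKM in the 6 h libraries. All of these values were above its highest level at another time, 18.9 FPKM.

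Several members were neighbours. Identifiers of this kind carry a chromosome number after the letters MD and a running number along it, with 00 for sequence without a chromosome. With at most 5 genes of the table between neighbours, 20 members fell into 9 runs, of which 8 were pairs. Members with no gene between them formed 3 runs of 7 genes in all. No such counts over all tested genes are given here, so nothing is read from the runs about clustering. By chromosome number, 10 held the most members, 18 of its 1667 tested genes (1.08%), and 7 held the fewest, 2 of 1496 (0.134%), against 0.572% over all tested genes. The genome build behind the identifiers is not given in the sources used here, and no coordinates were used.

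The longest run held 4 members within 5 consecutive genes of chromosome number 10. MD10G1052800 averaged 1.89 ± 0.362 FPKM at 0 h, 97.6 ± 18.2 FPKM at 6 h and 0.685 ± 0.247 FPKM at 24 h (SD, n = 3 each). MD10G1053000 had 0.919, 1.17 and 1.36 FPKM at 0 h, 96.5, 60.2 and 75.4 FPKM at 6 h, and 0.0548, 0.211 and 1.15 FPKM at 24 h. The log2 difference between 24 h and 0 h was -0.78 in MD10G1052800 (limma adjusted p = 0.00212), whose times did not overlap. In MD10G1053000 it was -0.61 and missed the threshold (limma adjusted p = 0.0616), with 1, 4 and 20 reads in the 24 h libraries and the third of these within the 0 h range.

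MD10G1053200 averaged 2.85 ± 0.456 FPKM at 0 h, 63.0 ± 3.56 FPKM at 6 h and 1.77 ± 0.371 FPKM at 24 h (SD, n = 3 each). MD10G1053100 was the weakest of the run, at 0.324 ± 0.0701 FPKM at 0 h, 8.22 ± 0.275 FPKM at 6 h and 0.182 ± 0.143 FPKM at 24 h (SD, n = 3 each). All 4 had a lower mean at 24 h than at 0 h, while 89 of the 145 members had a higher one. The gene inside the stretch that was no member, MD10G1052900, stayed near 1 FPKM, with means of 1.42 FPKM at 0 h, 1.004 FPKM at 6 h and 0.861 FPKM at 24 h. The nearest genes outside it, MD10G1052700 and MD10G1053300, changed by 0.16 and 0.26 between 6 h and 0 h on the log2 scale. The 6 h peak was thus not shared by the genes directly beside the run. The sources used here do not say how reads of near-identical neighbours were assigned, so values of single genes in such a run are uncertain.

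The pair with the largest rise on the log2(mean FPKM + 1) scale lay in a different setting, since neighbouring genes were higher at 6 h as well. Around MD13G1160900 and MD13G1161100, the genes MD13G1160600, MD13G1160700, MD13G1160800 and MD13G1161200 were higher at 6 h than at 0 h by 4.69, 4.77, 4.69 and 6.81 on the log2 scale. They were no members, since their 24 h means stayed above the 0 h means by 2.44, 2.70, 1.26 and 2.87, and the first 2 also missed the limit on the fall, at 2.25 and 2.07. MD13G1160800 had the highest peak among them, at 58.2 FPKM at 0 h, 1524 FPKM at 6 h and 141 FPKM at 24 h. In all 4 of these neighbours the third 24 h library was the highest of its time, at 27.7 FPKM against 3.93 and 10.9 FPKM in MD13G1161200. Of the pair itself, MD13G1160900 was highest in the third 24 h library and MD13G1161100 in the second. The gene between them, MD13G1161000, had no reads at 0 h and means of 2.17 FPKM at 6 h and 0.281 FPKM at 24 h, too low for the rule.

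**Figure D5:**
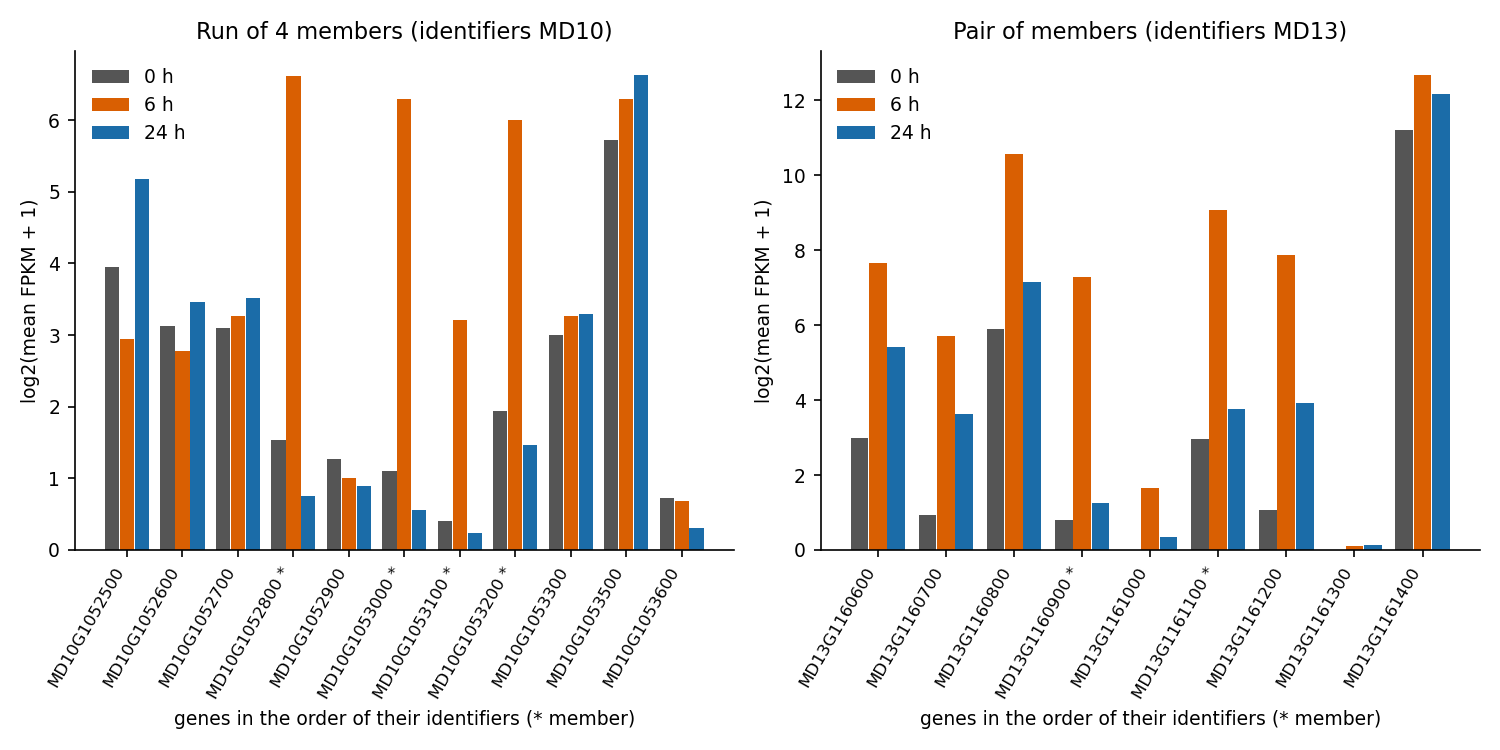
Log2(mean FPKM + 1) at 0 h, 6 h and 24 h (3 libraries per time) of consecutive genes in the order of their identifiers, around the run of 4 members on chromosome number 10 (left) and the pair on 13 (right); asterisks mark members. On the left only the members peak at 6 h, and on the right most neighbours peak at 6 h too but keep a higher level at 24 h than at 0 h.

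Members had a shorter median length than tested genes, which was not tested. The gene length recovered from the FPKM values had a median of 1126 bases in members, from 216 to 5035 bases, against 1533 bases over all tested genes. Of the members 15 (10.3%) were under 500 bases, against 5.97% of tested genes. Genes raised at both light times had a median of 1446 bases. Short lengths were not particular to members. The 44 genes that met both limits of 2.5 but stayed above their start by at least 1 also had a median of 1126 bases. In the 320 non-members that met the limit on the rise it was 1328 bases, with 9.06% under 500 bases. A short gene yields fewer reads for the same FPKM: at the median member length, 1 read was worth 0.0467 to 0.0550 FPKM. Over the 6 h libraries members had 99 to 77809 reads, with a median of 1667, against a median of 40 at 0 h.

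The limits of the rule cut a continuous range. Of the tested genes 465 met the limit on the rise, 194 of these also met the limit on the fall, and 49 of the 194 were left out for their distance between 24 h and 0 h. Of these, 44 stayed above their start by at least 1 and 5 ended below it by at least 1. The 44 had median levels of 0.831 FPKM at 0 h, 93.7 FPKM at 6 h and 6.74 FPKM at 24 h, so their peak was higher than that of the members. In them the first 6 h library was highest in 34. The limit of 1 FPKM on the mean excluded no gene that met the other limits. For the rise, the member nearest the limit was at 2.52 and the nearest gene outside at 2.49. For the fall they were at 2.53 and 2.495, and for the distance between 24 h and 0 h at 0.98 and 1.02.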

How the data were processed

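The deposited values are FPKM, computed by the authors for each library. HISAT2 and Cufflinks were used, per the submitters' processing notes, and for their versions, genome build, annotation and strand setting the sources used here give nothing. Whole reads and gene lengths were recovered from the steps of the FPKM values: all 37142 genes above 0 were rebuilt to a relative difference of at most 6.91e-08, with 100% of positive values less than 0.1 from a whole read. Libraries held 15331227 to 19495791 reads in genes.

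The 25362 genes averaging 1 FPKM or more were tested with limma 3.58.1 in R 4.3.3 on log2(FPKM + 1), which understates changes of low genes, in 1 fit of all 9 libraries with an intensity trend. Calls required that the p, adjusted by Benjamini-Hochberg across the tested genes, was under 0.05 and the log2 difference was 1 or more in size. The scripts were tested on simulated data. Alternatives were other pseudocounts, limits, filters and normalizations, a replicate block and leaving out each library, and, added after seeing the data, limma-voom on the recovered reads and summed reads as the denominator. Members and lists were chosen with earlier results of these data known. Named genes were the 4 members highest at 6 h, the 2 with the largest rise, the 2 with the largest fall, the longest run of neighbours and, by value, the genes nearest the limits of the rule. Lists based on gene descriptions were not run, since 0 identifiers matched.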

Additional observations from a re-analysis of the deposited data

Results flagged for a closer look

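All results here are changes against 0 h that differed between 6 h and 24 h by the limma comparison of 24 h with 6 h, which the choice of members fixed beforehand. They are therefore values and no further finding. That comparison called 145 of the 145 members. The log2 differences between 24 h and 6 h were -2.66 in MD04G1069200, -5.34 in MD13G1161100, -3.19 in MD07G1064100, -2.92 in MD10G1340100 and -6.11 in MD13G1160900. In the run on chromosome number 10 they were -5.86 in MD10G1052800, -5.78 in MD10G1053000, -2.97 in MD10G1053100 and -4.54 in MD10G1053200. With 3 libraries per time, no search for single outlying libraries was made.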

How the results depend on the processing

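The number of members (145) was 60 with a pseudocount of 5, 271 with limits of 2 and 82 with limits of 3, and 135 to 156 with 1 library left out. With a pseudocount of 0.1 it was 207, of which 107 were members. In every round that left out 1 library, 118 of the 145 stayed members. The calls at 6 h and after it covered 145 members in each of these rounds, as did the absence of overlap between times. The count between 24 h and 0 h (0) was 37 with a pseudocount of 0.1, 5 after quantile normalization (19.7% of tested genes) and 0 to 6 with 1 library left out. Chosen after seeing the data, limma-voom on the recovered reads gave 29, and summed reads as the denominator gave 1 (20.9% of tested genes). The latter moved the median difference between 24 h and 0 h over all tested genes by -0.19. The held-out rise (3.31) was 3.65 with a pseudocount of 0.1. The held-out fall (-3.24) was -3.93 with 0.1 and -2.90 with 5. Without the 10 most abundant genes the members' share was 0.0987% at 0 h and 0.0915% at 24 h. With no gene between neighbours there were 3 runs in place of 9. Deviations of libraries with the same replicate number correlated at -0.0627 to 0.0762 across genes, and those with other numbers at -0.0971 to 0.0949. Whether libraries of the same number share a source cannot be told from these values. With the replicate block 145 members were called at 6 h, 145 after it and 0 between 24 h and 0 h. All 18 differences of named genes stayed called, at an adjusted p under 0.05 and a log2 difference of at least 1, under the settings tried. MD10G1053100 varied most relative to its size, from 1.31 to 4.58 between 6 h and 0 h and from -5.53 to -1.35 between 24 h and 6 h, the smallest being with a pseudocount of 5 and under the rule's limit of 2.5.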

Other observations

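MD13G1160900 and MD13G1161100 had the same recovered length of 480 bases, which they shared with the member MD16G1159900. Among all tested genes 15 had this length, and 3 of these were members, against 0.572% of all tested genes. This length was singled out after the values were seen, because the pair with the largest rise has it, so nothing is read from the count. MD16G1159900 had 108.9, 137 and 171 FPKM in the 6 h libraries, so that its first library was the lowest, unlike in 112 of the members. Another gene of this length, MD16G1160100, had means of 0.850 FPKM at 0 h, 201 FPKM at 6 h and 42.9 FPKM at 24 h and was no member. The files give no sequences, so whether these genes are alike was not tested.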
